A study of Mus musculus with 284 samples.

Results

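The genes described here are the canonical histone genes, which encode the bulk histones that package newly made DNA, in tumour propagating cells of mouse skin. They were chosen as the genes with a symbol of the Hist1h to Hist4h series and an expected count above 0 in at least 5 of the 284 cells, which gave 58 genes. The table held 66 rows with such a symbol, and 8 of them stayed under the threshold. Just inside it lay Hist2h2be with 5 cells, Hist4h4 with 7 and Hist1h2af with 8, and just outside it Hist1h4b with 4 cells and Hist1h4f with 3. The other rows under the threshold were Hist2h2ab, Hist1h1t and Hist3h2bb-ps with 1 cell each, and Hist1h2aa, Hist3h2ba and Hist1h2ad with 0. A further 4 genes of the annotation, Hist2h2aa1, Hist2h2aa2, Hist2h2bb and Hist2h3b, were not analysed here. The 58 genes comprised 5 H1 (linker histone), 15 H2A, 16 H2B, 11 H3 and 11 H4 genes. Of these, 56 are annotated as protein-coding and 2, Hist1h2al and Hist1h2aj, as pseudogenes. In the GRCm38 annotation 51 lie in the cluster on chromosome 13 and 5 on chromosome 3, while Hist3h2a lies on chromosome 11 and Hist4h4 on chromosome 6. The members with the most reads are Hist1h2bc (ENSMUSG00000018102.5) at chr13:23684199-23692908 (plus strand), Hist1h1c (ENSMUSG00000036181.2) at chr13:23738808-23740367 (plus strand), Hist1h2ap (ENSMUSG00000094777.2) at chr13:21833026-21833507 (minus strand), Hist1h4i (ENSMUSG00000060639.5) at chr13:22040636-22041362 (minus strand), Hist2h3c2 (ENSMUSG00000081058.5) at chr3:96238108-96239127 (minus strand) and Hist1h1e (ENSMUSG00000051627.3) at chr13:23620629-23622558 (minus strand). Hist1h2bc has 2 exons in this annotation and the other 5 have 1.

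Copies of H2A, H2B, H3 and H4 together form the core of a nucleosome, and H1 binds the DNA that enters and leaves it. Most canonical histone genes are transcribed in S phase, when the genome is copied, and their mRNAs end in a short stem-loop instead of a poly(A) tail. The stem-loop is bound by SLBP, which directs the processing, translation and decay of these mRNAs. Some of these genes can also give longer, polyadenylated transcripts from a site downstream of the stem-loop, and such transcripts can be made by cells that do not divide.

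The cells came from skin tumours of 4 mice that received the carcinogen DMBA once at 8 weeks of age and then the tumour promoter TPA for over 20 weeks. Per the labels all mice carried ROSA26-LSL-eYFP and Keratin14-Cre, so that keratin 14-driven Cre switches on YFP in epidermal cells, and living YFP+ cells with CD34 and CD49f on their surface were sorted singly into wells. Mice WT1 (69 cells) and WT2 (88 cells) were wild type for Sirt6, a histone deacetylase, and KO1 (73 cells) and KO3 (54 cells) were labelled Sirt6-/-. Libraries were made by a modified Smart-seq2 protocol whose reverse transcription starts from an oligo-dT primer, so an mRNA needs a stretch of A to be copied. The mouse was the replicate, with 2 per genotype. No plate mixed the genotypes, and effects of plate and of genotype therefore cannot be told apart. Nothing in the labels says how many tumours a mouse gave.

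Total counts per cell lay between 523999 and 1684464. Levels are given as CPM, the counts of a gene scaled to a fixed total per library. Sirt6 itself had 16.7 CPM (WT1), 25.2 CPM (WT2), 27.0 CPM (KO1) and 14.5 CPM (KO3). Its counts thus did not separate the labelled genotypes, and where only some exons are lost, a gene-level value is no check of the label. At least 2 of 6 keratinocyte markers were present in 284 of 284 cells, with a summed level between 27293 and 40555 CPM per mouse. Summed levels were 0.698 to 1.72 CPM for 7 fibroblast markers (Col1a2, Dcn and Lum at 0), 5.78 to 9.70 for 6 endothelial markers (Kdr at 0), 6.22 to 31.7 for 8 immune markers (Cd3e at 0) and 0.117 to 5.51 for 6 melanocyte markers (Tyr, Dct and Tyrp1 at 0). A pair of immune markers was found together in 7 cells, and a pair of endothelial markers in 3.

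The sequence that sets most of these genes apart from other genes is the stem-loop, and it is shown here for the 5 of the 6 most abundant members whose annotated transcript holds it. The search spelled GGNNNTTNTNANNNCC on the transcript strand, with 6 base pairs in the stem (G with T allowed), in the GENCODE M21 transcripts of GRCm38, in DNA letters. Capitals mark the 16 bases of the stem-loop.
Hist1h1c: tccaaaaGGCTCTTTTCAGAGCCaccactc
Hist1h2ap: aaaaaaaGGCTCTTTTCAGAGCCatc
Hist1h4i: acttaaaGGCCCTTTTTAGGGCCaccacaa
Hist2h3c2: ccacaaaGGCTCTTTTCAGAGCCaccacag
Hist1h1e: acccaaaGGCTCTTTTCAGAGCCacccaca
Hist1h1c, Hist1h2ap, Hist2h3c2 and Hist1h1e carry the same 16 bases, and Hist1h4i carries another version of it. The transcript of Hist1h2ap ended 3 bases after the stem-loop, while those of Hist1h4i, Hist2h3c2, Hist1h1c and Hist1h1e went on for 330, 377, 840 and 1153 bases.

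A stem-loop was found in the transcripts of 39 of the 58 members and in 62 of 21834 other protein-coding genes (0.284%). By family it was found in 3 of 5 H1, 8 of 15 H2A, 9 of 16 H2B, 9 of 11 H3 and 10 of 11 H4 genes. Of the 19 members without one, 10 have an annotated transcript that stops at the end of the coding region, and 2 are the pseudogenes, so the search had nothing to read after the stop codon. The remaining 7 include Hist1h2bc, whose spliced 1156-base transcript in 2 exons runs 742 bases past its stop codon without a match. Also among the 7 are Hist1h2ah and Hist1h2af, with only 2 and 1 bases after the stop codon, too few to hold the 16 bases searched. In the longest transcript, 21 members had more than 100 bases after the stem-loop and 17 had 100 or fewer. A polyadenylation signal, spelled AATAAA or ATTAAA, was found in the last 50 transcript bases of 15 of 58 members, against 78.05% of the other protein-coding genes. Both a stem-loop and such a signal were found in 12 members, Hist1h1c, Hist1h4i and Hist3h2a among them.

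Nearly all cells contained histone reads, but 2 genes supplied most of them. The 58 genes summed to 287 and 409 CPM in WT1 and WT2, and to 297 and 487 CPM in KO1 and KO3. Hist1h2bc, an H2B gene, held 39.0% and Hist1h1c, which encodes a linker histone, 28.2% of all histone counts, together 67.2%. Only 1 cell, of KO1, had no count for any member. The median cell had counts for 8 members (WT1), 6 (WT2), 7 (KO1) and 11 (KO3), and for 7, 5, 6 and 9 when each cell was thinned to 500000 counts.

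Hist1h2bc had a count in 245 of 284 cells (86.3%). By mouse the share was 85.5% for WT1 (exact binomial 95% interval 75.0 to 92.8), 88.6% for WT2 (80.1 to 94.4), 79.5% for KO1 (68.4 to 88.0) and 92.6% for KO3 (82.1 to 97.9). Its levels were 110 CPM (WT1), 191 CPM (WT2), 96.3 CPM (KO1) and 174 CPM (KO3). WT1 and KO1 were low and WT2 and KO3 high, so that each genotype held 1 mouse of either kind. In single cells of WT2 its level ranged from 0 to 759 CPM with a median of 127. These intervals cover only the sampling of cells within a mouse, not the spread between mice. The protocol has no molecular identifiers, so counts are of reads and not of molecules.

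Hist1h1c was detected in 185 cells at 65.9 CPM (WT1), 138 CPM (WT2), 90.0 CPM (KO1) and 116 CPM (KO3). The order of the mice differs from that of Hist1h2bc only in KO1 and WT1. When detected, these 2 genes were read at depth, with a median of 116 counts for Hist1h2bc and 123 for Hist1h1c. Both were present in 165 cells, Hist1h2bc alone in 80, Hist1h1c alone in 20 and neither in 19.

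The next members had fewer reads and were seen in fewer cells. Hist1h2ap, an H2A gene, had counts in 156 cells, at 25.4 and 10.0 CPM in WT1 and WT2, then 19.1 and 49.1 CPM in KO1 and KO3. Its transcript shares 93.07% of its 50-base stretches with Hist1h2ao, so its value depends on how reads were divided between near-identical copies. The H4 gene Hist1h4i had counts in 100 cells, at 13.5 and 11.7 CPM in WT1 and WT2, then 20.1 and 45.6 CPM in KO1 and KO3. For the H3 gene Hist2h3c2, seen in 102 cells, the levels were 11.7, 6.64, 12.0 and 22.4 CPM in the order WT1, WT2, KO1, KO3. Hist1h1e, a second linker histone gene, had counts in 132 cells and 9.67, 6.14, 6.56 and 14.8 CPM. KO3 was highest and WT2 lowest for all 4 of these genes. Since longer mRNAs give more reads, the genes were compared with each other per kilobase of the longest annotated transcript. On that scale the mean over mice was 123 CPM per kilobase for Hist1h2bc, 65.6 for Hist1h1c, 53.8 for Hist1h2ap, 31.2 for Hist1h4i and 12.9 for Hist2h3c2. The order of these 5 means stayed as in CPM, but the mice overlap between neighbours. Hist1h2ap lay above Hist1h1c in WT1 (52.7 against 42.3) and in KO3 (102 against 74.3). Hist1h2bl followed at 8.31 and Hist1h1b at 5.91 CPM per kilobase, ahead of Hist1h1e at 4.82. The annotated transcripts of Hist1h2bl (381 bases) and Hist1h1b (743) stop at the end of the coding region. That of Hist1h1e (1930) runs 1209 bases past its stop codon, so the order of these genes depends on the annotated length.

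**Figure D1:**
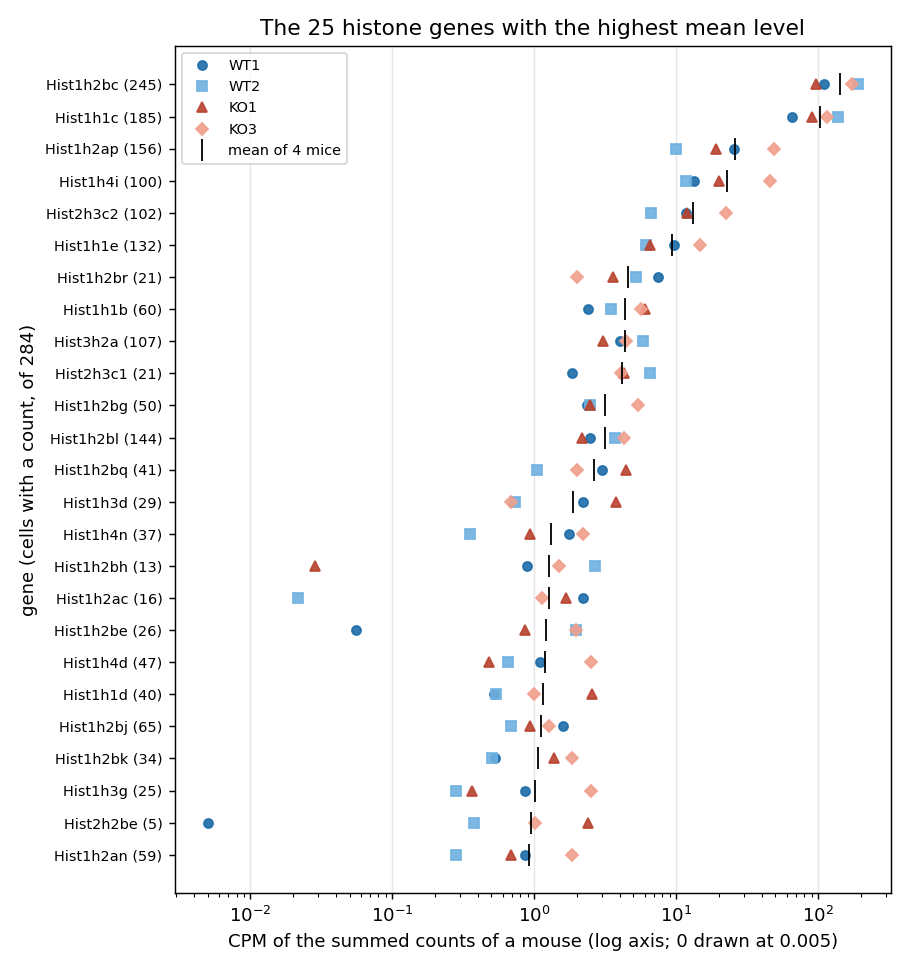
Levels of the 25 members with the highest mean, as CPM of the summed counts of each mouse on a log axis; symbols are the 4 mice, the bar is their mean, and the number after each name is the count of cells with a read. Hist1h2bc and Hist1h1c stand apart at 65.9 to 191 CPM, and from rank 7 down the members lie at 7.46 CPM or less in all 4 mice.

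Each family rested largely on a single gene. Hist1h1c supplied 87.2% of the H1 counts, Hist1h2bc 87.2% of the H2B counts, Hist1h4i 76.3% of the H4 counts, Hist1h2ap 72.9% of the H2A counts and Hist2h3c2 55.0% of the H3 counts. In the order WT1, WT2, KO1, KO3 the H2B sum was 130, 212, 117 and 198 CPM and the H1 sum 79.3, 148, 106 and 138 CPM. The H2A sum was 34.6, 18.3, 26.7 and 60.8 CPM, the H3 sum 20.6, 16.6, 22.7 and 34.1 and the H4 sum 22.7, 14.6, 24.8 and 56.9. These sums are not corrected for length and hold only reads that an oligo-dT primer could start, so they are no ratio of the core histones.

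Detection and level did not always go together. Hist1h2bl had a count in 144 cells at a mean over mice of 3.17 CPM, and a median of 4.25 counts in the cells that had any. Hist1h2ba was seen in 108 cells at 0.778 CPM and Hist3h2a in 107 at 4.34 CPM. Conversely, Hist1h2br and Hist2h3c1 were seen in 21 cells each, yet at means of 4.57 and 4.19 CPM, with medians of 63.2 and 62.2 counts in those cells. Hist1h1b, a linker histone gene whose reads were whole numbers in every cell, was seen in 60 cells at 4.39 CPM.

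The remaining members among the 25 highest were mostly sparse. Means were 3.17 CPM for Hist1h2bg, 2.62 for Hist1h2bq, 1.86 for Hist1h3d and 1.32 for Hist1h4n. Another 8 had means between 1.01 and 1.27 CPM: Hist1h2bh, Hist1h2ac, Hist1h2be, Hist1h4d, Hist1h1d, Hist1h2bj, Hist1h2bk and Hist1h3g. Hist2h2be at 0.947 and Hist1h2an at 0.919 CPM closed this group. A single cell supplied 40.9% of the counts of Hist2h2be, and for 22 of the 58 members 1 cell held more than 20% of the counts. Outside the 25, 33 members had means between 0.0401 and 0.912 CPM, were seen in 7 to 108 cells and together held 3.49% of the histone counts.

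Division of reads between copies bears on most of these values. Of the non-zero values of the members 65.9% were not whole numbers, against 21.5% over all genes. In 46 members more than 50% of the values were not whole, and 6 members, Hist1h1b, Hist3h2a, Hist2h2be, Hist4h4, Hist1h1a and Hist2h4, had whole numbers only. Hist2h3c1 shares 100% and Hist2h3c2 63.54% of its 50-base stretches with transcripts of Gm20634, which overlaps Hist2h3c1, and 18 members overlap another annotated gene. The strand setting of the counting is not given in the sources used here, so reads of overlapping genes on opposite strands cannot be told apart.

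Cells were next ordered by an S phase score, the mean of the standardised log2(CPM + 1) of 40 S phase genes that include Mcm2 and Pcna and no histone gene. In each mouse the cells in the top 25% of the score (71 cells in all) were compared with those in the lower 50% (143 cells). The counts of each class were summed per mouse, and levels in these comparisons are CPM scaled by edgeR's TMM factors. Hist1h2ap, Hist2h3c2, Hist2h4, Hist1h1b and Hist1h1e had higher levels in the high class of every mouse, and Hist1h2bc had a lower one. None of these differences passed the adjusted threshold in edgeR, and some did in DESeq2.

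Hist1h2ap had 69.2 CPM in the S-high cells of WT1 against 3.36 in the S-low cells. In WT2 the values were 36.9 against 0.911, in KO1 55.5 against 1.22 and in KO3 77.9 against 28.0. All 4 S-high values lay above all 4 S-low values, with the closest approach in KO3. The log2 difference was 4.26 (SE 0.83; adjusted p = 0.243 by edgeR's quasi-likelihood test, 3.8e-09 by DESeq2). A count for Hist1h2ap was found in 94.1% of the S-high and 40.0% of the S-low cells of WT1, 45.5% and 20.5% in WT2, 94.4% and 35.1% in KO1, and 100% and 63.0% in KO3. With every cell thinned to 500000 counts the shares were 82.4% and 37.1%, 45.5% and 18.2%, 88.9% and 24.3%, and 100% and 59.3%, so the S-high cells had the larger share in all 4 mice at equal depth too.

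Hist2h3c2 followed the same course with 29.2 against 1.98 CPM in WT1, 23.1 against 0.210 in WT2, 29.0 against 2.09 in KO1 and 38.4 against 14.5 in KO3. Again no S-low value reached an S-high value, and KO3 had by far the highest S-low level. Its log2 difference was 3.87 (SE 0.96; adjusted p = 0.323 by edgeR and 2.5e-05 by DESeq2).

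The linker histone genes split. Hist1h1b was 4.10 against 1.05 CPM in WT1, 5.62 against 1.68 in WT2, 11.3 against 4.17 in KO1 and 7.61 against 3.13 in KO3 (log2 difference 1.60, SE 0.61; adjusted p = 0.444 by edgeR and 0.0329 by DESeq2). Hist1h1e was 15.5 against 6.09, 11.2 against 6.73, 13.2 against 1.71 and 17.9 against 9.87 CPM in the same order of mice. Its log2 difference was 1.44 (SE 0.58; adjusted p = 0.475 by edgeR), and DESeq2 did not call it. The transcript of Hist1h1e shares 23.76% of its 50-base stretches with Hist1h2be. Hist1h1b and Hist1h1e were each higher in the S-high cells of 4 of 4 mice, although the values of the classes overlap between mice. Hist1h1c was 92.1 against 54.7 CPM in WT1, 88.4 against 192 in WT2, 63.7 against 106 in KO1 and 69.9 against 85.9 in KO3. Its S-high cells were thus higher in WT1 and lower in the other 3 mice (log2 difference -0.36, SE 0.32).

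Hist1h2bc had 76.7 CPM in the S-high and 117 in the S-low cells of WT1, and 132 against 241 in WT2. In KO1 it had 83.6 against 107 and in KO3 127 against 162. The S-high cells were lower in 4 of 4 mice, by a log2 difference of -0.54 (SE 0.15; adjusted p = 0.329 by edgeR and 0.0418 by DESeq2). A CPM is a share of the reads of a cell, so a lower share and fewer molecules cannot be told apart.

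**Figure D2:**
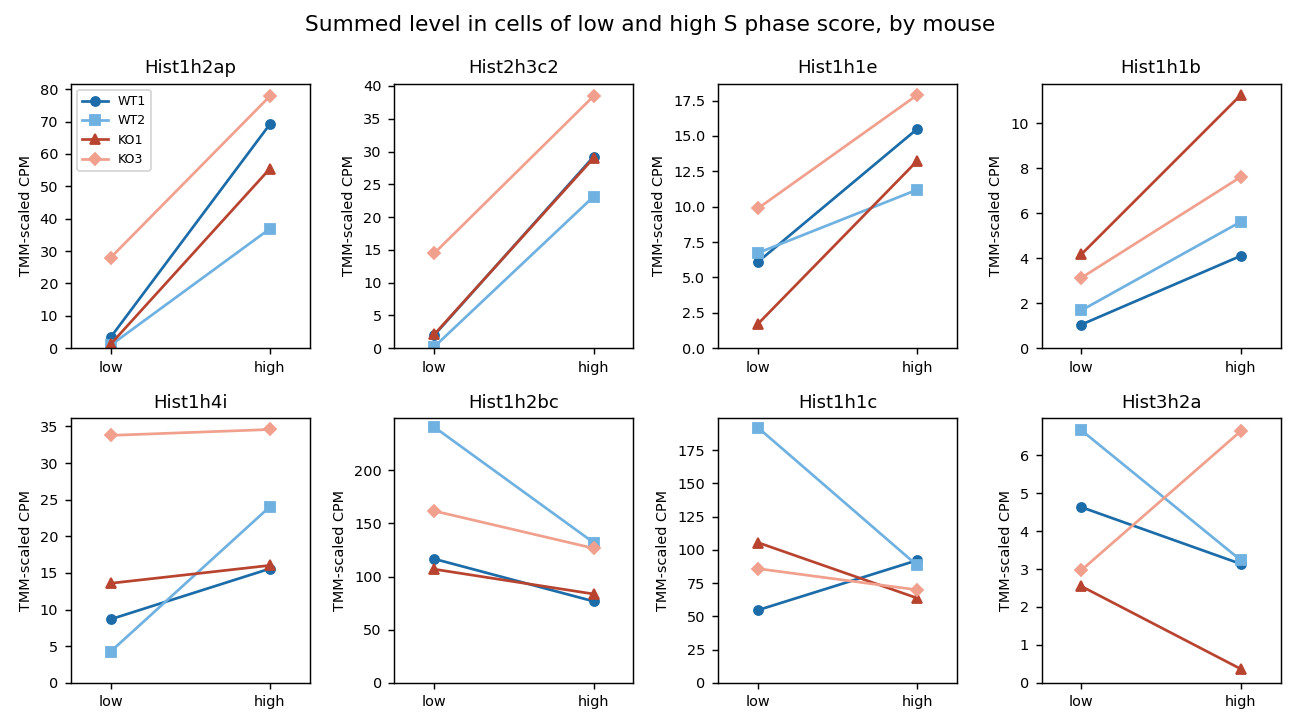
Level of 8 members in cells of low and high S phase score, as TMM-scaled CPM of the summed counts; each line joins the 2 classes of 1 mouse, and each panel has its own axis from 0. Hist1h2ap, Hist2h3c2, Hist1h1e and Hist1h1b are higher in the high class in all 4 mice, and Hist1h2bc is lower in it in all 4.

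Less abundant members of this kind were Hist2h4, Hist1h2an and Hist1h2ab. Hist2h4, an H4 gene whose reads were all whole numbers, had 1.54 against 0.0827 CPM in WT1, 0.851 against 0 in WT2, 0.873 against 0.0255 in KO1 and 1.03 against 0.128 in KO3. The S-high level was above every S-low level, at adjusted p = 0.308 by edgeR and 0.0465 by DESeq2. The log2 differences were 4.54 for Hist2h4, 3.62 for Hist1h2an and 2.51 for Hist1h2ab. Hist1h2br, an H2B gene, had 0 against 13.3 CPM in WT1, 1.40 against 10.5 in WT2, 0 against 5.93 in KO1 and 1.52 against 3.36 in KO3. DESeq2 called it lower (log2 difference -5.51, adjusted p = 0.00711), while edgeR did not (-5.07, adjusted p = 0.515). However, Hist1h2br was seen in 21 cells only and shares 88.41% of its 50-base stretches with Hist1h2bq. The log2 difference of Hist1h2bq was 0.21 (SE 0.99) by edgeR, so the value of Hist1h2br depends on how reads were divided between these copies.

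In the whole comparison edgeR called 0 of 13337 genes (0.0%), and so 0 of the 37 members that passed its filter on low counts. At an unadjusted p under 0.05, 7 members were higher, against 5.2% of all genes, and 1 was lower, against 5.23%. DESeq2 called 4 of 38 members higher, against 3.42% of all genes, and 2 lower, against 3.48%. Among the 37, 15 were higher in the S-high cells of 4 of 4 mice, against 10.0% of all genes, and 2 were lower in 4 of 4, against 11.5%. Without the filter all 58 members had a value, of which 43 were positive with a median log2 difference of 1.35, against -0.18 over all genes. Since 29 of the 58 share more than 50% of their 50-base stretches with other genes, counts of members here and below are not of independent genes. By the rule that a member follows S phase when edgeR calls it higher and it is higher in 4 of 4 mice, no member qualified. The test rests on 3 residual degrees of freedom and a common biological coefficient of variation of 0.693.

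The S-high cells also had more detected genes. Their median per mouse lay between 6690 and 7193, against 5366 to 6462 in the S-low cells. With the score corrected for total counts and detected genes, the log2 difference was 2.79 for Hist1h2ap, 2.18 for Hist2h3c2, 1.28 for Hist1h1b and -0.64 for Hist1h2bc, none past the adjusted threshold of edgeR. Whether detection plays a part in the remaining difference was not tested.

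The S phase difference was also compared between the genotypes. No member passed this test of the class by genotype term (0 of 13337 genes by edgeR, 0.0%). At an unadjusted p under 0.05 it gave 0 of 37 members, against 1.55% of all genes with the larger difference in Sirt6-/- cells and 1.6% with the smaller. DESeq2 was not run for this term.

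Cell by cell, the same genes stood out. Correlations of log2(CPM + 1) with the S phase score were taken within each mouse, over 54 to 88 cells that share the mouse and its plates, and are a description. Hist1h2ap had r = 0.63 (WT1), 0.53 (WT2), 0.68 (KO1) and 0.54 (KO3). For Hist2h3c2 the values were 0.47, 0.50, 0.49 and 0.47. Mean r over mice was 0.44 for Hist1h2an, 0.40 for Hist2h4, 0.32 for Hist1h2ao and 0.31 for Hist1h1e. Hist1h2bc (0.02), Hist1h1c (0.04), Hist3h2a (0.02) and Hist1h2bl (0.03) lay near 0, and Hist1h2br and Hist1h2al at -0.09.

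A score of Mcm2 and Pcna alone gave smaller values. Mean r was 0.43 for Hist1h2ap, 0.33 for Hist2h3c2 and 0.31 for both Hist2h4 and Hist1h2an. With the S phase score corrected for depth and detected genes Hist1h2ap kept 0.47 and Hist2h3c2 0.33, while Hist1h2bc had -0.10. The number of detected genes itself had r = 0.36 with Hist1h2ap and 0.38 with Hist2h3c2. For comparison, Slbp, the stem-loop binding protein, had a mean r of 0.51 with the S phase score and the variant histone gene H2afz, whose mRNA is polyadenylated, also 0.51.

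**Figure D3:**
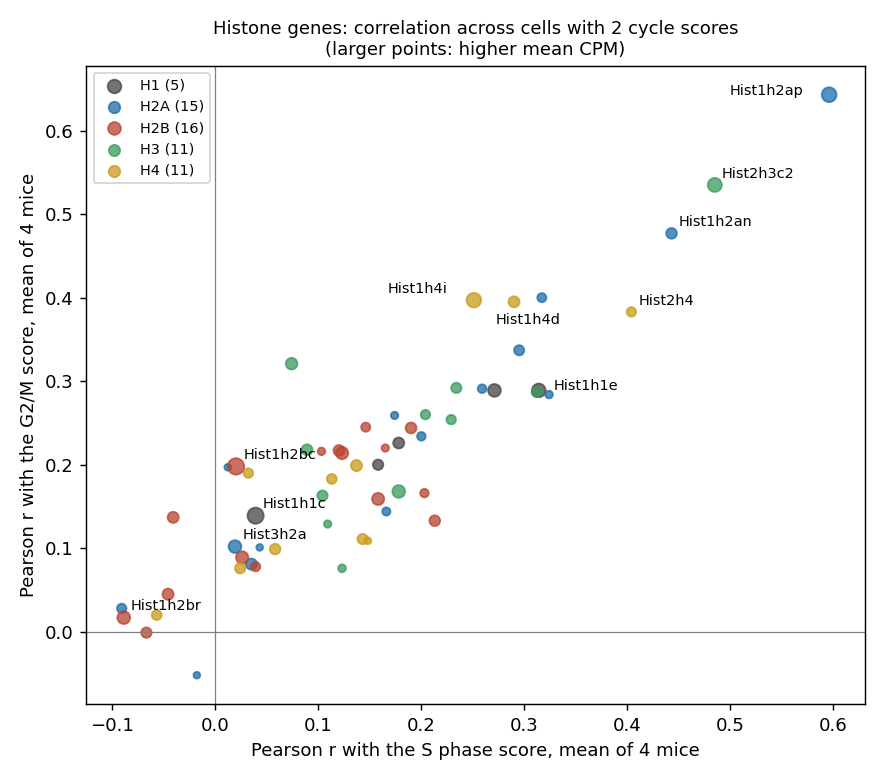
Pearson r across cells of each of the 58 members with the S phase score (horizontal) and the G2/M score (vertical), as means over 4 mice; colour is the histone family and point size grows with the mean CPM. Hist1h2ap lies at 0.60 and 0.64, Hist2h3c2 at 0.49 and 0.54, and the 2 most abundant members near 0 on the S phase axis at 0.20 and 0.14 on the other.

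Cells were also ordered by a G2/M score, the mean over 51 genes of G2 and mitosis, with classes set in the same way. Hist1h2ap and Hist2h3c2 were again higher in the high class of every mouse, and DESeq2 but not edgeR called them. The median number of detected genes per mouse was 6910 to 7432 in the G2/M-high and 5396 to 6343 in the G2/M-low cells, and its part in the result was not tested. Hist1h2ap had 55.2 CPM in the G2/M-high cells against 1.51 in the G2/M-low cells of WT1. It had 37.5 against 0.817 in WT2, 62.7 against 0.890 in KO1 and 55.8 against 13.0 in KO3 (log2 difference 4.83, SE 0.84; adjusted p = 0.273 by edgeR and 9.1e-11 by DESeq2). Hist2h3c2 had 20.6 against 2.05, 23.5 against 0.553, 39.8 against 2.14 and 39.5 against 5.14 CPM, a log2 difference of 3.94 (SE 0.56; adjusted p = 0.236 by edgeR and 2.8e-11 by DESeq2). No G2/M-low value of either gene reached a G2/M-high value.

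In the S phase classes Hist1h4i had 15.6 against 8.68 CPM in WT1 and 24.1 against 4.27 in WT2. It had 16 against 13.6 in KO1 and 34.6 against 33.8 in KO3, and was thus higher in 4 of 4 mice. Its S phase log2 difference was 0.87 (SE 0.52; adjusted p = 0.618 by edgeR). In KO1 and KO3 the share of cells with a count was 50.0% against 21.6% and 78.6% against 48.1%, the same after thinning. Hist1h4i was also higher in the G2/M-high cells of 4 of 4 mice. Its values were 17.5 against 7.37 CPM in WT1, 31.1 against 4.52 in WT2, 49.4 against 12.2 in KO1 and 64.0 against 32.6 in KO3. The log2 difference was 1.75 (SE 0.38; adjusted p = 0.294 by edgeR and 8.4e-04 by DESeq2). Hist1h2bc and Hist1h1c were higher in 2 of 4 mice each, with log2 differences of 0.12 (SE 0.23) and 0.24 (SE 0.30).

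DESeq2 called 8 of 43 members higher with the G2/M score, against 2.9% of all genes, and 0 lower, against 3.76%. Besides Hist1h2ap, Hist2h3c2 and Hist1h4i they were Hist1h4d, Hist1h2an, Hist1h2bb, Hist1h1a and Hist2h2be, with DESeq2 log2 differences of 2.96 for Hist1h4d and 4.33 for Hist1h2an. Hist1h2bb had 99 counts in the high and 0 in the low class, 62.2-fold higher on an assumed floor of 3 counts over the class. But it was seen in 9 of the 284 cells, and 1 cell held 39.3% of its counts. Hist2h2be had 278 and 0 counts, 174-fold higher on that floor, and was seen in 5 cells. As 1 cell can hold many more reads than the floor, neither fold is a lower bound. edgeR called 1 of 13331 genes (0.0075%) and 0 of the 40 members tested, and 13 members were higher at an unadjusted p under 0.05, against 4.7% of all genes, and 0 lower, against 5.95%. In 4 of 4 mice 21 members were higher, against 9.67%, and 1 was lower, against 13.0%. Without the filter 52 of the 58 had a positive difference, with a median of 1.73, against -0.17 over all genes. Members that share sequence are again not independent in these counts.

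Of the 71 S-high cells 31 were also G2/M-high, so both comparisons share cells. The 40 cells high in S only were therefore set against the 40 high in G2/M only. Hist1h2ap had 53.5 CPM in S-only and 32.0 in G2/M-only cells of WT1, 0.213 and 1.78 in WT2, 15.2 and 30.9 in KO1, and 77.1 and 48.8 in KO3. It was thus higher in S in 2 mice and higher in G2/M in 2. Hist1h2bc was lower in the S-only cells of 4 of 4 mice, at 93.4 against 167 CPM in WT1, 100 against 191 in WT2, 88.0 against 133 in KO1 and 104 against 160 in KO3. No S-only value of Hist1h2bc reached a G2/M-only value, and the log2 difference was -0.75 (SE 0.16; adjusted p = 1.00 by edgeR and 0.0186 by DESeq2).

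Hist1h1c and Hist1h4i shared that direction in 4 of 4 mice. Hist1h1c was 89.6 against 95.3 CPM in WT1, 80.6 against 170 in WT2, 28.0 against 98.2 in KO1 and 62.0 against 122 in KO3. Hist1h4i was 14.0 against 16.7, 2.55 against 20.0, 7.05 against 83.5 and 24.0 against 59.8 CPM. The classes lay closest together in WT1 for both genes. The log2 differences were -0.99 (SE 0.31) and -2.02 (SE 0.73), neither called by either tool. edgeR called 0 of 11429 genes (0.0%) here. Among the 23 members tested, 3 were lower in S at an unadjusted p under 0.05, against 2.14% of all genes, and 0 were higher, against 2.16%. DESeq2 called 1 of 21 members lower, against 1.03%, and 0 higher, against 1.1%. The 3 lower members were lower in 4 of 4 mice, against 7.44% of all genes, and 0 of the 23 were higher in 4 of 4, against 7.63%.

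**Figure D4:**
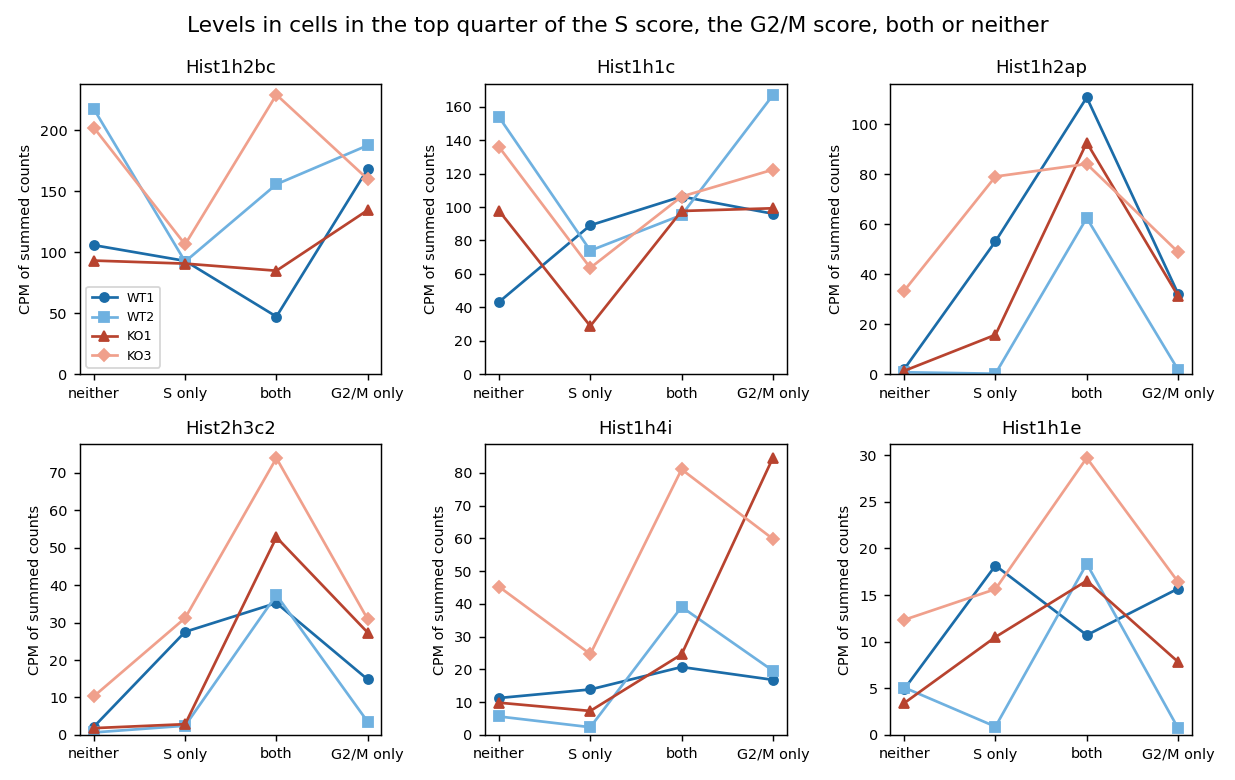
Levels of 6 members in cells in the top 25% of the S phase score only, of the G2/M score only, of both or of neither, as CPM of the summed counts; lines join the classes of 1 mouse, and each panel has its own axis from 0. Hist1h2ap and Hist2h3c2 peak in the cells high in both scores in all 4 mice, while Hist1h2bc has 93.1 to 217 CPM in cells high in neither score.

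The cells high in both scores, 3 to 13 per mouse, held the highest levels of both Hist1h2ap and Hist2h3c2. Hist1h2ap had 111 (WT1), 62.5 (WT2), 92.6 (KO1) and 84.1 CPM (KO3) in these cells. In cells high in neither score it had 1.98, 0.749, 1.30 and 33.4 CPM. In S-only cells it had 53.1, 0.162, 15.7 and 79.1 CPM, below the cells high in neither in WT2 and above them in the other mice. In WT2 13 of the 22 S-high cells were also G2/M-high, and 1 of the 9 others had a count for Hist1h2ap. Hist2h3c2 had 35.2, 37.4, 52.8 and 74.0 CPM in cells high in both scores and 2.16, 0.646, 1.80 and 10.3 in cells high in neither. In S-only cells it had 27.5, 2.44, 2.85 and 31.2 CPM. Hist1h2bc showed no such rank, with 47.1, 156, 84.7 and 229 CPM in cells high in both scores and 106, 217, 93.1 and 202 in cells high in neither.

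Hist1h2ap and Hist2h3c2, which lie on chromosomes 13 and 3, varied together from cell to cell. Their r was 0.72 (WT1), 0.76 (WT2), 0.72 (KO1) and 0.83 (KO3). Both had at least 15 CPM in 42 cells. WT1 held 9 of them (13.0% of its cells), WT2 7 (7.95%), KO1 9 (12.3%) and KO3 17 (31.5%). Of the 42, 38 were in the top 25% of the S phase or the G2/M score, and the 4 others were all from KO3. The top 25% of the S phase score held 29 of the 42, against 71 of all 284 cells, and that of the G2/M score also 29, against 71. Both held 20 of the 42, against 31 of all cells. These 2 genes had already been seen to be higher in the high classes of both scores. That level was chosen after the cells had been plotted, and the lower of the 2 values lay between 7.5 and 30 CPM in 11 cells. These 42 cells had a median of 7190 detected genes, against 6184 in the others.

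**Figure D5:**
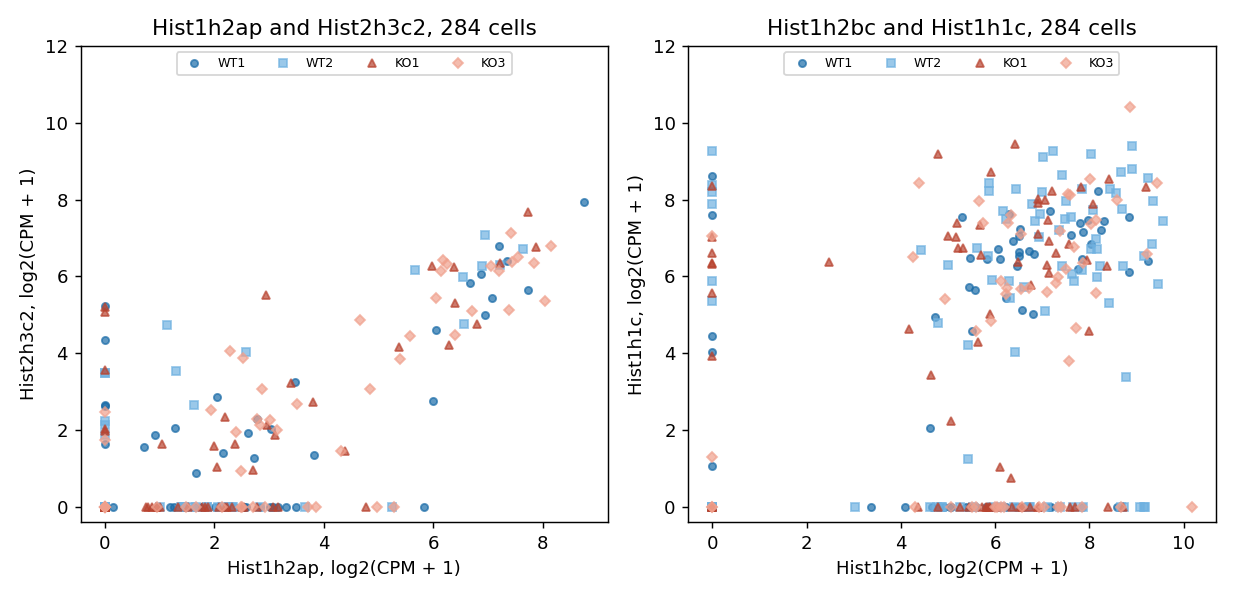
Each point is 1 of the 284 cells, with log2(CPM + 1) of Hist1h2ap against Hist2h3c2 on the left and of Hist1h2bc against Hist1h1c on the right; symbols are mice. On the left a group of cells from all 4 mice is high for both genes, and on the right most cells are high for Hist1h2bc whether or not they contain Hist1h1c.

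The linker histone genes Hist1h1e and Hist1h1b also varied with this pair. Hist1h1e had r between 0.45 and 0.62 with Hist1h2ap and between 0.46 and 0.55 with Hist2h3c2. Hist1h1b, which encodes a further linker histone, had 0.38 to 0.47 with both. With Hist1h2ap, Hist1h2bc had r between 0.08 and 0.25 and Hist1h1c between 0.07 and 0.39. Hist1h2bc and Hist1h1c had r between 0.18 and 0.33 with each other, and Hist1h2bc between -0.08 and 0.18 with Hist1h1e. Hist1h1c had r between 0.12 and 0.53 with Hist1h1e, with a mean over mice of 0.33, against 0.24 with Hist1h2bc. All of these values are across cells of 1 mouse, which also share depth and library quality.

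The promoters of Hist1h1e and Hist1h1c are shown because both encode linker histones and only the former was higher in the S-high cells of all 4 mice. They are the 250 bases upstream of the start, 5′ to 3′ on the gene's strand, from RefSeq on GRCm38.p6, at chr13:23622559-23622808 (minus strand) and chr13:23738557-23738806 (plus strand). Capitals mark CCAAT and TATAAA in either direction.
Hist1h1e: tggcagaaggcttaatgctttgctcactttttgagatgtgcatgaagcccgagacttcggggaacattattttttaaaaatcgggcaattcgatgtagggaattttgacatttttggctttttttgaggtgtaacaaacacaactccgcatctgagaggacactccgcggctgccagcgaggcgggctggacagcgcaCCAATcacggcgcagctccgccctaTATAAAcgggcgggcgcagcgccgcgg
Hist1h1c: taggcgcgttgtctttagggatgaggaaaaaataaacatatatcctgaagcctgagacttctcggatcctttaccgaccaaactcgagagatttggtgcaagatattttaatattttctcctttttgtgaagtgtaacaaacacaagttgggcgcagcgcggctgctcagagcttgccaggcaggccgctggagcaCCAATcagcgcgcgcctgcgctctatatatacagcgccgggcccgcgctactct
Both hold a CCAAT match, and Hist1h1e also a TATAAA match. The search took only the exact letters TATAAA, and Hist1h1c holds the run TATATATA after its CCAAT. It therefore does not show that Hist1h1c lacks a related sequence. Of the H1 genes with TATAAA, Hist1h1e and Hist1h1b were higher in the S-high cells of 4 of 4 mice, Hist1h1a of 3 and Hist1h1d of 2. Hist2h3c2 had neither motif. Whether these motifs bear on the S phase differences was not tested. RefSeq promoters were found for 50 of the 58 members. CCAAT was found in 41 of the 50 (82%), against 33.85% of 32851 promoters, in 5 of 5 H1, 12 of 12 H2A, 14 of 14 H2B, 7 of 9 H3 and 3 of 10 H4 genes. TATAAA was found in 25 (50%), against 12.37%, and in 4 of 5 H1 genes. ATTTGCAT, the octamer, was found in 12 (24%), against 1.601%, and these were 6 H2A and 6 H2B promoters, none of H1, H3 or H4. Promoters of divergent H2A and H2B neighbours can share bases, so they are not independent.

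With a suprabasal score, the mean over 20 genes of differentiating epidermis, no member was called by edgeR, which called 286 of 13275 genes (2.15%) and tested 31 members. At an unadjusted p under 0.05, 1 member was lower, against 10.2% of all genes, and 0 were higher, against 8.91%. Of 36 members DESeq2 called Hist1h2bm higher (log2 difference 4.02, adjusted p = 0.0201), against 7.86% of all genes, and Hist1h4j lower (-5.64, adjusted p = 0.0314), against 11.2%. Neither was among the 31 members that edgeR tested, and they had counts in 11 and 16 cells. In 4 of 4 mice 1 of the 31 was higher, against 14.7%, and 3 were lower, against 17.2%. Hist1h2bc had 124 against 86.5 CPM in WT1, 199 against 209 in WT2, 96.6 against 90.1 in KO1 and 115 against 182 in KO3, a log2 difference of -0.03 (SE 0.21).

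Between the genotypes no histone gene passed the test. The summed level was 348 ± 86.8 CPM (SD, n = 2 mice) in wild type and 392 ± 134 (SD, n = 2) in Sirt6-/- mice. The difference of 44.3 CPM had p = 0.667 by a two-sided exact permutation test, whose smallest possible p is 0.33 for 2 against 2. Without WT1 the difference was -17.1 CPM and without KO3 -50.8, while without WT2 it was 106 and without KO1 139, so its direction rests on single mice. The mice of a genotype overlapped those of the other, since WT1 and KO1 were low and WT2 and KO3 high.

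edgeR called 0 of 16567 genes (0.0%) between the genotypes and 0 of the 54 members tested, with 1 member higher at an unadjusted p under 0.05, against 1.63% of all genes, and 0 lower, against 3.49%. DESeq2 called 0 of 53 members, against 0.334% of all genes higher and 1.04% lower. The member with the unadjusted p under 0.05 was Hist1h4i, at 13.2 and 12.3 TMM-scaled CPM in WT1 and WT2 and 19.6 and 45.7 in KO1 and KO3 (log2 difference 1.36, SE 0.49; adjusted p = 0.962 by edgeR). Its Sirt6-/- mice lay above its wild type mice, as they did for 17 of the 54 members, against 17.0% of all genes. For 2 members both lay below, against 18.7%. KO3 also had the most cells with Mki67, a marker of dividing cells (79.6%, against 58.0% in WT1, 42.0% in WT2 and 46.6% in KO1). The part of cycling cells in the levels of KO3 was not tested.

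The genes that process histone mRNA and carry histones to DNA were described from lists of 19 processing genes, 23 chaperones and 11 histone variants. In the S phase comparison edgeR called none of the 18, 23 and 10 genes it tested. At an unadjusted p under 0.05, 15 chaperones were higher, against 5.2% of all genes, as were 6 processing genes and 2 variants. DESeq2 called 13 chaperones, 6 processing genes and 2 variants higher, against 3.42% of all genes, and 0 lower. The genes named next were singled out after their values were seen.

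Chaf1a, a subunit of the CAF-1 complex that places histones H3 and H4 on new DNA, had 99.6 against 13.5 CPM in WT1, 72.0 against 7.24 in WT2, 89.1 against 8.07 in KO1 and 86.6 against 9.78 in KO3. Its log2 difference was 3.20 (SE 0.21; adjusted p = 0.0512 by edgeR). Hat1, which acetylates new H4, differed by 2.39 (SE 0.24; adjusted p = 0.0949), and Nasp, an H1 and H3-H4 chaperone, by 1.47 (SE 0.18; adjusted p = 0.17). Slbp had 107 against 29.9 CPM in WT1, 111 against 26.5 in WT2, 155 against 34.0 in KO1 and 125 against 70.7 in KO3. The variant gene H2afz had 1383 against 743, 1091 against 360 and 1421 against 747 CPM in WT1, WT2 and KO1, but 1660 against 1665 in KO3.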

How the data were processed

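Expected counts per gene and cell are the authors' own values, deposited as 1 table; STAR, RSEM and mm10 (GRCm38) are named in the submitters' processing notes, without versions or a strand setting in the sources used here. All 284 cells were used, and none were identical to another. Doublets were not called, as cells had been sorted singly. Symbols and transcripts came from GENCODE M21 (54156 of 54247 gene IDs matched). The members and all gene lists were chosen with earlier results of these data known.

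Counts were summed per mouse, or per mouse and class of cells, and the sums rounded to whole numbers. They were tested with edgeR (version 4.0.16, R 4.3.3) by the two-sided quasi-likelihood test after filterByExpr and TMM scaling, with Benjamini-Hochberg adjustment over all genes tested and a threshold of 0.05. Comparisons of cell classes had the mouse as a block and left out the genes of the score. DESeq2 1.42.0 was an alternative, and its shares are over the genes with an adjusted p. The fits were also run on simulated data with less spread than these and changes only in abundant genes. That run does not show how they perform for sparse members. Values were called whole within 1e-06. The 25 members with the highest mean CPM, and those called in a comparison, were named with values; others named in the text were chosen after their values were seen. With 2 mice per genotype, p-values measure the spread between these mice. Alternatives were other size factors, no filter, thinning to 500000 counts, leaving out a mouse or the cells on another mouse's plate, other score classes and no block.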

Additional observations from a re-analysis of the deposited data

How the results depend on the processing

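With DESeq2 in place of edgeR the members called numbered 6 with the S phase score and 8 with the G2/M score. There were 2 with the suprabasal score and 1 between S-only and G2/M-only cells. In each of these edgeR called 0, and the cause was not tested. The 2 suprabasal members, and Hist2h2be with the G2/M score, had not passed the filter of edgeR on low counts. Between the genotypes both tools called 0. Under the other alternatives edgeR called 0 members in each comparison. The summed histone level, Sirt6-/- minus wild type, ran from -50.8 CPM (without KO3) to 139 CPM (without KO1) and was -17.1 CPM without WT1.

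Of 325 recomputed log2 differences of named members (28 main values), 307 kept their direction and their side of the threshold. Another 13 passed it, all with DESeq2, and 5 turned direction. These members were picked by an unadjusted p under 0.05 in the main edgeR fit, with Hist1h2bc and Hist1h1c added. No main value passed the adjusted threshold, so the 307 are values that stayed uncalled. The turned values were small: Hist1h1c with the S phase score at 0.163 when the cells were split into 3 equal parts and the top set against the bottom, Hist1h1c with the G2/M score at -0.05 under that split, and Hist1h2bc with the G2/M score at -0.016 with no replicate block. Leaving out each mouse moved the G2/M difference of Hist1h1c from -0.025 (without WT1) to 0.512 (without WT2) and that of Hist1h2bc from -0.094 (without WT1) to 0.341 (without WT2). The S phase difference ran from 2.79 to 5.42 for Hist1h2ap, from 2.18 to 4.69 for Hist2h3c2 and from -0.64 to -0.36 for Hist1h2bc over 13 alternatives.

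No paired analysis was possible because the genotypes share only the number 1 (WT1 and KO1), which nothing in the labels ties to a litter or batch; cell classes were paired by mouse, and without that block edgeR again called 0 members. Depth limits the 33 members with a mean under 1 CPM outside the 25 named, and more than 50% of the values were not whole numbers in 46 members.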
